A study of Mus musculus with 4 samples.

Results

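The 10 genes described here are the epithelial-mesenchymal transition (EMT) factors Snai1, Snai2, Zeb1, Zeb2, Twist1 and Twist2, the classical cadherins Cdh1, Cdh2 and Cdh3, and Vim. They were taken by symbol from the 17630 genes quantified in each library, and all 10 were found. EMT is the programme by which epithelial cells loosen their junctions and take up mesenchymal features, and the zinc finger proteins of the Snail and Zeb families drive it by repressing epithelial genes through E-box sequences. Twist proteins are basic helix-loop-helix factors with the same overall effect. In the mammary gland, basal cells are epithelial and yet carry part of this programme: Snai2 is known as a factor of basal and stem cell identity, and P-cadherin, encoded by Cdh3, is a basal adhesion protein.

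The study asked how sympathetic nerves act on mammary basal cells of wild-type C57BL/6 mice. Sorted basal cells (lineage-negative, CD24-positive, CD29-high) came from control mice or from mice given the neurotoxin 6-hydroxydopamine (6-OHDA), which destroys sympathetic nerve endings. Basal colonies were grown in Matrigel without or with the adrenergic agonists salbutamol and phenylephrine (SP), and the label of the SP library carries the number 200 without a unit. The age of the mice behind these libraries is not given in the labels. Each of the 4 conditions had 1 library, so no difference below has a replicate check and no test was made. RNA was measured in bulk, in which fewer cells of a type and less RNA per cell cannot be told apart.

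All 12 basal markers lay above 1 FPKM (fragments scaled by transcript length and by the fragments sequenced) in all 4 libraries, with Krt14, a basal keratin, as the most abundant at 3595 in the sorted control, 2633 in the 6-OHDA library, 3298 in control colonies and 6920 in SP colonies. Luminal markers were also present: they summed to 1117, 1009, 1598 and 1579 FPKM in the same order, led by Krt8, a luminal keratin, with 11 of 12 above 1 FPKM in the sorted control and 12 in the other libraries. Basal markers summed to 11733, 10845, 7212 and 15167, so the defining markers of the labelled cells were present, and each library, the colonies included, also held luminal transcripts. Markers of other cell types were seen mostly in the sorted libraries. The 9 endothelial markers summed to 325 FPKM in the sorted control and 328 in the 6-OHDA library, led by Pecam1, which encodes the CD31 that the lineage gate is meant to remove, and to 2.09 in control and 2.02 in SP colonies, where Tie1 and Cldn5 were at 0 with SP. The 12 fibroblast markers summed to 210 in the sorted control and 414 in the 6-OHDA library, led by Dcn, and to 47.9 and 18.8 in control and SP colonies, led by Col1a2 and Col5a1, with Dpt, Fap and Pi16 at 0 in SP colonies. Salivary gland genes summed to 15353 FPKM in the 6-OHDA library, with Bpifa2 highest at 7277, and to 5.50 in the sorted control, where 5 of 8 were at 0. Adipocyte markers summed to 221.5, 387, 42.6 and 4.16 in the sorted control, the 6-OHDA library, control colonies and SP colonies, led by Fabp4 except with SP (Lipe). Schwann cell markers summed to 88.7, 103, 24.4 and 17.3, led by Sox10 in sorted cells (50.6 and 61.9) and Mbp in colonies (12.9 and 8.67). Pericyte markers summed to 34.4, 43.3, 23.3 and 18.1, led by Rgs5 in sorted cells and Notch3 in colonies. At 22.5 and 17.3 in control and SP colonies, Notch3 made up most of the pericyte sum and was the only pericyte marker above 1 FPKM there. Leukocyte markers were low, at 13.8, 12.8, 3.37 and 4.67, led by Cd68, with Cd3e at 0 in all but the sorted control and Ptprc at 0 in both colony libraries. The part of these cells in the levels below was not tested.

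Among the EMT factors, Snai2 was the most abundant in all 4 libraries, by length-normalised FPKM. Its level was 42.4 in the sorted control, 41.4 with 6-OHDA, 12.0 in control colonies and 20.0 in SP colonies. It made up 73.3%, 71.2%, 74.7% and 89.1% of the summed FPKM of the 6 factors in these libraries. Snai2 is thus the leading factor of the 6 in the sorted cells and in the colonies as a whole, although its level was lower in colonies. Snai1, its relative and a direct repressor of Cdh1, stood at 4.27, 4.54, 2.76 and 1.88 in the same order. Zeb1 and Zeb2, which repress epithelial genes and are held down by the miR-200 family, stood at 5.36, 6.89, 0.29 and 0.12 for Zeb1 and 3.79, 3.10, 0.24 and 0.08 for Zeb2. Both Zeb genes were thus at single-digit levels in sorted cells and close to 0 in colonies, where their summed level was 0.53 without and 0.20 with SP. Twist1 was low throughout, at 1.28, 1.55, 0.48 and 0.16, and Twist2 did not reach 1 FPKM in any library, at 0.74, 0.66, 0.31 and 0.20.

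Few fragments lay behind the Twist1 values in colonies, and no estimate was made for Zeb1, Zeb2 and Twist2. Steps between low FPKM values gave a rough depth of 15.3 to 18.8 fragments for 1 FPKM on 1 kilobase, over assumed fragment lengths of 150 to 300 bases, with fit scores of 0.38 to 0.53 where 1 is a perfect fit. By this estimate, Twist1, which has a single annotated transcript, was read from about 12 fragments in control colonies and about 4 in SP colonies. Snai1 was read from 67 to 68 fragments in control colonies and from 46 to 47 in SP colonies. Snai2 was read from at least 373 in any library, so that its level rested on many more fragments.

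Cdh1, which encodes the E-cadherin of epithelial adherens junctions, was the most abundant cadherin of the 3 in all libraries. Its FPKM was 165 in the sorted control, 161 with 6-OHDA, 227 in control colonies and 198 in SP colonies. Cdh3 stood at 74.0, 78.8, 50.8 and 57.3, and Cdh2, which encodes the N-cadherin of mesenchymal and neural cells, at 4.38, 5.01, 45.2 and 31.3. Cdh2 varied the most of the 3 among libraries: it was low in sorted cells and nearer to Cdh3 in colonies. Cdh1 was 37.8 times Cdh2 by FPKM in the sorted control, 32.1 times with 6-OHDA, 5.02 times in control colonies and 6.31 times with SP. Of the summed FPKM of the 3 cadherins, Cdh2 made up 1.80%, 2.05%, 14.0% and 10.9%.

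Vim encodes vimentin, the intermediate filament protein of mesenchymal cells, which mammary basal cells also express. Its FPKM was 396 in the sorted control, 537 with 6-OHDA, 233 in control colonies and 243 in SP colonies, and it was the most abundant of the 10 genes in each. Vim ranked 195th, 144th, 333rd and 340th among all genes of these libraries. The ratio of Vim to Cdh1 was 2.40 in the sorted control and 3.34 with 6-OHDA, and 1.02 and 1.23 in control and SP colonies.

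**Figure D1:**
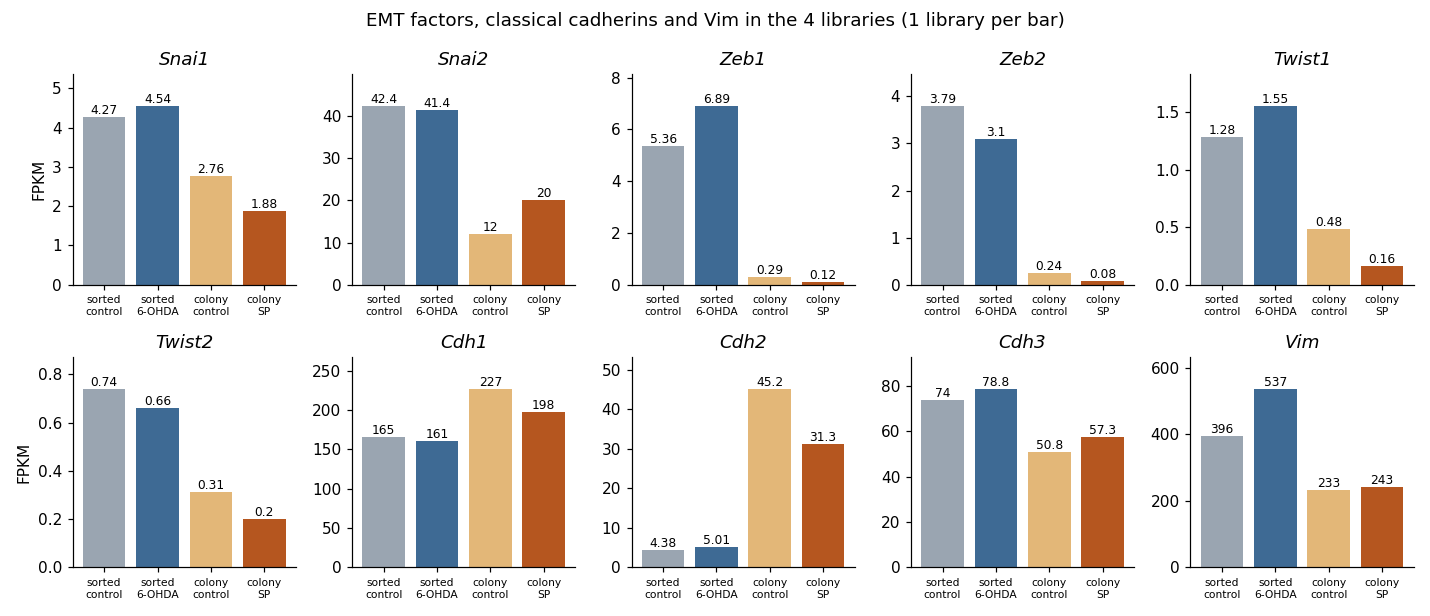
Bars give the FPKM of each gene (vertical axis, from 0, with a scale of its own for each gene) in the 4 libraries, 1 library per bar: sorted control, sorted 6-OHDA, colony control and colony SP. In FPKM as deposited, Cdh1 and Cdh2 are higher in both colony libraries than in both sorted libraries, and the other 8 genes are lower; the direction of Cdh1 between the controls turns with median scaling.

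Changes were read as differences of log2(FPKM + 1), which understate the change of low genes, among genes with a mean of at least 1 FPKM over the libraries compared. Within sorted cells, called means past 0.3 in size. With 6-OHDA, Vim and Zeb1 were higher, and the cadherins and the other EMT factors compared were not called. Vim stood at 537 against 396 FPKM in the control, a change of 0.44, and Zeb1 at 6.89 against 5.36, a change of 0.31. Of the 9 members compared, all but Twist2, these 2 were called higher, against 15.8% of all 11749 genes compared, and 0 were called lower, against 8.35%. With so few members, the counts do not set them apart from other genes. Zeb1 lay just past the threshold and fell under it with a pseudocount of 5 or when libraries were scaled by their median ratio. Snai2 changed by -0.03, Cdh1 by -0.04, Cdh3 by 0.09, Snai1 by 0.07, Cdh2 by 0.16, Twist1 by 0.16 and Zeb2 by -0.22.

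Of the 9 related lists in the 6-OHDA comparison, the mesenchymal effector list had the most calls: 7 of 17 were higher and 2 lower, with a median of 0.25 against 0.06 over all genes. Over all genes of this comparison, 15.8% were called higher and 8.35% lower. S100a4, a calcium-binding protein of motile cells, rose from 10.2 to 34.2 FPKM (1.65), Fn1, which encodes fibronectin, from 19.6 to 43.2 (1.10), and Lox, a collagen cross-linking enzyme, from 2.42 to 6.26 (1.09). Fibroblast markers moved in the same direction, with 9 of 12 called higher (median 0.54), and Col3a1 from 18.3 to 91.7. Of those called, Fap (1.7 against 0.78 FPKM) and Pi16 (1.64 against 0.9) passed the filter only through the 6-OHDA library. Salivary gland genes were higher in 7 of 8 and lower in 1 (Dmbt1, 0.10 against 3.80 FPKM). Of the higher ones, 5 were at 0 in the control. Those 5 and Lpo (6.4 against 0.4 FPKM) passed the filter only through the 6-OHDA library, and Dmbt1 only through the control. Adipocyte markers were higher in 2 of 3 compared (median 0.70), with Fabp4 at 374 against 210, while luminal markers were lower in 3 of 11 and higher in 1 (-0.12). The part of these in Vim, Zeb1 and this list was not tested. Junction genes leaned lower, with 5 of 21 lower and 2 higher (median -0.14), among them Cldn4 and Cldn7, while the desmosomal cadherin Dsg3 was higher at 5.72 against 3.71 FPKM. Of the other EMT factors, 2 of 9 were higher and 1 lower (median 0.11), with Prrx1 at 5.63 against 3.41. Of the epithelial regulators, 1 of 11 was higher and 3 were lower (median -0.01), Ovol1, Gata3 and Klf4. The catenin list had 0 higher and 1 lower of 15 (Nectin2; median 0.00), and the other cadherins 1 higher and 0 lower of 6 (Cdh10; 0.02). The cadherin median turned to -0.03 with median scaling and to -0.07 at a mean of at least 5 FPKM. The TGF-beta pathway had 2 higher and 3 lower of 22 (median -0.01), the corepressor and turnover list 1 of each of 16 (0.08) and the vimentin relatives 1 higher of 3 (Nes; 0.12).

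Within colonies, at the same threshold, SP went with higher Snai2 and lower Snai1 and Cdh2. Snai2 was 20.0 with SP against 12.0 FPKM without (log2 fold change 0.69), Cdh2 31.3 against 45.2 (-0.52), and Snai1 1.88 against 2.76 (-0.38). Snai1 and Snai2 thus moved in opposite directions, and the ratio of Snai2 to Snai1 was 10.6 with SP and 4.36 without. Of 6 members compared, 1 was called higher, against 11.7% of 11849 genes, and 2 were called lower, against 19.8%. Cdh1 (-0.20), Cdh3 (0.17) and Vim (0.06) were not called. Zeb1, Zeb2, Twist1 and Twist2 were below the filter, and all 4 had lower values with SP than without. The Snai1 fall was under the threshold with a pseudocount of 5, at -0.17. Basal markers also differed, with 7 of 12 called higher and 1 lower (median 0.82) and their sum at 15167 FPKM with SP against 7212 without; the part of this in the Snai2 change was not tested.

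Mesenchymal effector genes leaned lower with SP, with 10 of 16 lower and 0 higher (median -0.47 against -0.07 over all genes). Over all genes of this comparison, 19.8% were called lower and 11.7% higher. Postn, which encodes the matrix protein periostin, fell from 2376 to 1004 FPKM (-1.24), the integrin gene Itgb3 was at 10.2 against 19.1 (-0.85) and Lox at 4.43 against 7.75 (-0.69). Fibroblast markers were also lower in 5 of 7 compared, adipocyte markers in 2 of 2 (median -2.22), with Fabp4 at 1.05 against 34.4 FPKM, Schwann cell markers in 2 of 3 (-0.53) and the pericyte marker compared, Notch3, in 1 of 1. Of the lower fibroblast markers, Col3a1 (0.46 against 2.33 FPKM) and Pdgfrb (0.6 against 1.56) passed the filter only through control colonies. Other markers of these lists were below the filter. The part of these cell types was not tested. Junction genes split, with 7 of 22 higher and 5 lower (median -0.06). The higher ones included desmosomal cadherins, Dsg3 at 197.9 against 68.9 FPKM (1.51) and Dsc3 at 82.1 against 40.7, and the tight junction gene Cldn1, whereas Cldn3, Cldn4 and Cldn7 were lower. Luminal markers, Cldn3 and Foxa1 among them, were lower in 5 of 12 and higher in 1 (median -0.15), and their part in these changes was not tested. Catenins had 5 of 15 higher and 3 lower (median 0.02). Ctnnd2, which encodes delta-catenin, had the largest change, at 2.36 against 5.25 (-0.90), and Nectin1 was higher at 17.8 against 11.4 (0.60). Jup (plakoglobin) stood at 209 against 149 (0.49), and beta-catenin, Ctnnb1, at 467.5 against 373. Among the epithelial regulators 3 of 13 were higher, including Klf4 at 36.6 against 20.3 and Grhl3 at 9.44 against 5.36, and 5 were lower, including Foxa1 at 8.32 against 15.2 (median -0.15). The other EMT factors had 1 higher (Foxq1) and 2 lower (Prrx1, Sox4) of 8 (median -0.11), and the other cadherins 1 higher (Cdh13) and 2 lower (Cdh10, Cdh11) of 4 (-0.54, but -0.23 with a pseudocount of 5, 0.00 with no filter and -0.93 at a mean of at least 5 FPKM). The TGF-beta pathway had 3 higher and 5 lower of 22 (median -0.09), the corepressor and turnover list 2 higher and 4 lower of 16 (-0.04) and the vimentin relatives 0 of 2 (0.12, or 0.00 with no filter). Several of these small medians changed sign: that of the other EMT factors was 0.01 with no filter, those of the corepressor and junction lists were 0.03 and 0.01 with median scaling, and that of the catenins was -0.01 after rescaling to the same sum. Among the cadherins called lower, Cdh10 (0.79 against 2.52 FPKM) passed the filter only through control colonies.

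Control colonies were compared with the sorted control at a threshold of 1, since culture differs from fresh tissue in many genes. This comparison shares a control library with each of the others. Of the members, 4 passed this threshold, in both directions. Cdh2 was 10.3 times as high in colonies by FPKM, 45.2 against 4.38 (log2 fold change 3.10), Zeb1 was 18.5-fold lower (-2.30), Zeb2 was 15.8-fold lower (-1.95) and Snai2 was 3.52-fold lower (-1.73). Cdh2, a mesenchymal cadherin, was thus higher where Snai2, Zeb1 and Zeb2 were lower. Of 8 members compared, 1 was called higher, against 30.7% of 12244 genes, and 3 lower, against 13.2%. With median scaling, 1 member was higher and 5 were lower, against 17% and 20.7% of the genes then compared. Zeb1 and Zeb2 passed the filter only through the sorted control, and with a pseudocount of 5 they changed by -0.97 and -0.75, under the threshold. Vim fell by 0.77 and Cdh3 by 0.53 on the log2 scale, Snai1 by 0.49, and Cdh1 was 0.46 higher, none past the threshold. The median change of all genes was 0.45, and after scaling by the median ratio it was -0.02; Cdh1 then changed by -0.05, so its direction depended on the scaling, and Vim (-1.27) and Cdh3 (-1.03) came past the threshold.

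Endothelial markers fell with these changes, all 9 of 9 compared past the threshold (median -4.35), and fibroblast markers in 7 of 9, with 1 higher (Pdgfra, 9.95 against 2.62 FPKM). Pericyte markers were lower in 3 of 4 compared and higher in 1 (Notch3), and Schwann cell markers lower in 3 of 5 and higher in 1 (S100b). Adipocyte markers were lower in 2 of 3 compared and leukocyte markers lower in 2 of 3. Other markers of these lists were below the filter. Among them, the adipocyte genes Adipoq (1.66 against 0.18 FPKM), Plin1 (1.23 against 0.11) and Cidec (0.6 against 0.16) had higher values in control colonies, and Lep a lower one (0.07 against 0.71). Basal markers were lower in 6 of 12 and higher in 0 (median -1.25), with Myh11, a smooth muscle myosin, at 11.2 against 467 FPKM and Krt5, a basal keratin, at 1888 against 1002. Luminal markers were higher in 6 of 12 and lower in 1 (median 1.02), with Elf5 at 22.5 against 0.63. Elf5 passed the filter only through colonies. The part of these cell types in the members' changes, and in those of the TGF-beta pathway and other lists below, was not tested. Culture, animals and library cannot be told apart. Cdh5, the cadherin of endothelium, stood at 77.9 in the sorted control and 0.12 in colonies.

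Over all genes of this comparison, 30.7% were called higher and 13.2% lower, or 17% and 20.7% with median scaling. The junction list had 13 of 22 genes higher and 1 lower (median 1.61), led by Dsg3 (3.71 to 68.9 FPKM), Tjp3 and Cldn7. Tjp3, at 17.1 against 0.93 FPKM, passed the filter only through colonies. Of the epithelial regulators, 7 of 13 were higher and 3 lower (median 1.03), with Klf4 at 20.3 against 188. The largest rises were those of Elf5 (3.85) and Foxa1 (2.74), which are also among the luminal markers. Elf5 and Grhl3 (5.36 against 0.9 FPKM) passed the filter only through colonies. Mesenchymal effector genes went both ways, with 8 of 17 higher and 4 lower (median 0.81): Fn1 stood at 327 against 19.6 (3.99) and Itga5 at 13.4 against 57.6 (-2.03). Loxl2, called lower at 0.5 against 4.14 FPKM, passed the filter only through the sorted control. The vimentin relatives Des, Synm and Nes were lower in 3 of 3 compared (median -2.85, or -1.26 with a pseudocount of 5). Des, at 0.08 against 7.20 FPKM, passed the filter only through the sorted control, and with no filter the median of the list was -0.66. The TGF-beta pathway had 3 higher and 9 lower of 22 (median -0.69), with the strongest falls in Tgfbi and Eng, and catenins had 3 higher and 2 lower of 15 (-0.33), with Nectin4 at 30.1 against 1.64. Other EMT factors had 4 higher and 1 lower of 8 (median 0.60), including Foxc1 at 23.2 against 4.29, other cadherins 0 higher and 2 lower of 5 (0.31), and the corepressor and turnover list 3 higher (Gsk3b, Btrc, Hdac1) and 0 lower of 16 (0.44). The direction of these 3 medians depended on the scaling or filter. The median of other EMT factors was -0.02 after rescaling to the same sum and -0.04 at a mean of at least 5 FPKM, and that of other cadherins was -0.82 and -3.13 in these settings and -0.12 with median scaling, where the corepressor list was at -0.03. With no filter, the median of other EMT factors was 0.04 and that of other cadherins -0.03. Hmga2, an EMT factor called higher, passed the filter only through colonies (3.19 against 0.05 FPKM). Snai3 and Foxc2, with lower values in colonies, were below the filter. Cdh5, a cadherin called lower, passed it only through the sorted control. With median scaling the mesenchymal effector median was 0.31, that of the epithelial regulators 0.54, that of the TGF-beta pathway -1.18 and that of the catenins -0.84.

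**Figure D2:**
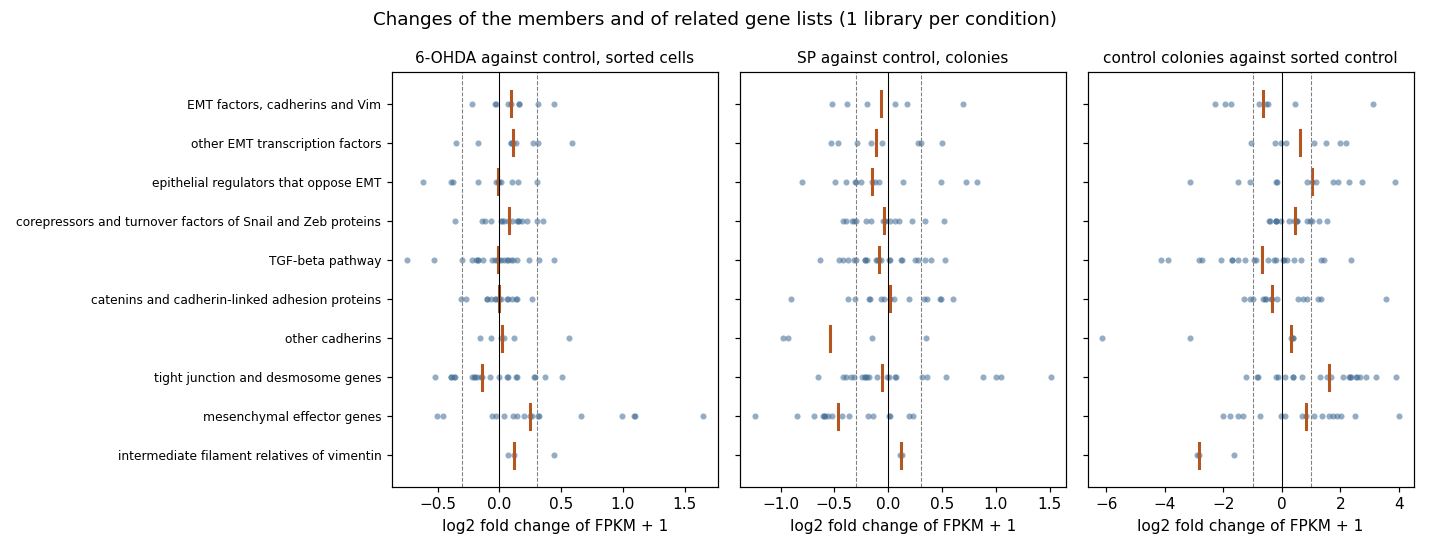
Points give the log2 fold change of FPKM + 1 (horizontal axis) of each gene that passed the filter, by list (vertical axis), for the 3 comparisons; orange marks are list medians and dashed lines the thresholds of 0.3 and 1. Medians of the mesenchymal effector list are 0.25 with 6-OHDA and -0.47 with SP, and that of the junction list is 1.61 in control colonies against the sorted control.

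The members lie on 6 chromosomes (GRCm38.p6 coordinates). Snai1 is on chromosome 2 (167538195 to 167542814), as are Vim (13574311 to 13582826) and Zeb2 (44983512 to 45117442). Snai2 is on chromosome 16 (14705852 to 14709395), Twist1 on chromosome 12 (33957671 to 33959831) and Twist2 on chromosome 1 (91801461 to 91848034). Cdh1 (106603350 to 106670247) and Cdh3 (106510852 to 106556911) lie on the same strand of chromosome 8, 46438 bases apart with 3 RefSeq genes between them, and their FPKM moved in different directions in control colonies against the sorted control before median scaling. Zeb1 (5591327 to 5775468) and Cdh2 (16588877 to 16809246) are on chromosome 18. By whole gene span, introns included, Zeb1 overlaps the RefSeq non-coding gene Gm10125, Zeb2 overlaps Zeb2os and Mir5129, and Twist2 overlaps Gm46117. These are not among the genes quantified here. Overlap of exons was not checked, and the strandedness of the libraries is not given in the sources used here. Whether reads of these genes enter the members' values was not tested.

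The genes with profiles nearest to 5 members, by Euclidean distance of centred log2(FPKM + 1) over the 4 libraries, were sought among 9101 genes with a mean of at least 5. Snai2 lay nearest Emp1 (distance 0.08; 439, 449, 127.5 and 212 FPKM in the order sorted control, 6-OHDA, colony control and SP). Cdh2 lay nearest Pon3 (0.09), Cdh1 nearest Atf5 (0.01), Cdh3 nearest Akirin1 (0.01) and Vim nearest Tex30 (0.05). These neighbours share the shape of the levels over 4 libraries, and nothing is drawn from them on function or control.

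The E-box CACCTG, or CAGGTG on the other strand, is the sequence that Snail and Zeb zinc fingers bind. Promoter windows of 250 bases before the transcription start were given in the RefSeq table for 5 members, Snai1, Zeb2, Twist1, Twist2 and Vim, and of their 8 windows 1 holds a match, that of Snai1. The share of all 32851 windows with a match is 17.2%. The Snai1 stretch is shown since Snail proteins are known to bind such sequences (GRCm38.p6, plus strand, chr2:167538039-167538104, motif in capitals, beginning 126 bases before the start).
Snai1: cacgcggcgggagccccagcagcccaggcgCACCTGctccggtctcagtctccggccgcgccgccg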

How the data were processed

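RNA was extracted from sorted basal cells and from Matrigel colonies, and the 4 libraries were made with 1 library per condition. The authors deposited FPKM values (2 decimals) for 17630 genes per library; the submitters' processing notes name Bowtie2, RSEM 1.3.1, DESeq2 1.4.5 and mm10, without saying what each did. Gene numbers were matched to RefSeq symbols of GRCm38.p6 (17512 matched). From the FPKM values, log2(FPKM + 1) differences were computed for genes with a mean of at least 1, with a call past 0.3 within sorted cells and colonies and past 1 between the controls. The calculation was tested on simulated data with large known changes and little noise. That test checks the arithmetic only and does not bear on calls near the thresholds. Named genes were drawn from the 10 members, the 3 genes of each list with the largest change per comparison and the nearest profiles, not all of which are printed; other genes named were chosen after their values were seen. Alternatives were pseudocounts of 0.1 and 5, 3 rescalings, no filter or a mean of at least 5, and thresholds of 1 or 0.3. Members and lists were chosen with earlier results of these data known. The control colonies were assigned by their title and the SP colonies by their treatment label. Python 3.11.15, numpy 2.4.6, pandas 2.3.3 and matplotlib 3.10.9 were used.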

Additional observations from a re-analysis of the deposited data

How the results depend on the processing

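Of 150 alternative values for the log2 fold changes of the 10 members, read without the filter, 134 kept their direction and side of the threshold. A further 6 fell under it, 9 came past it and 1 changed sign without being called (Cdh1 in control colonies against the sorted control, -0.05 with median scaling), and 0 called values changed sign. Those that came past were Cdh3 and Vim in control colonies and otherwise members below the filter. The latter were Zeb1, Zeb2 and Twist2 with SP, and Twist1 and Twist2 in control colonies. Twist1 with SP, also below the filter, was among those that fell under. With a pseudocount of 5 the members called higher with 6-OHDA were 1, those lower with SP were 1 and those lower in control colonies were 1. With median scaling, 1 was higher with 6-OHDA and 5 were lower in control colonies. With a mean FPKM of at least 5, 1 was lower with SP and 1 in control colonies, since fewer genes were compared, and with no filter 3 were lower with SP, Twist1 (-0.35) being the added member. At a threshold of 1, 0 members were called higher with 6-OHDA, 0 higher with SP and 0 lower with SP; at a threshold of 0.3 in control colonies, 2 were higher and 6 lower. The cause was not tested for the other changes. Of all called genes, 65.4% were higher with 6-OHDA, 37.1% with SP and 69.9% in control colonies, and with median scaling 50.4%, 49.8% and 45.1%. Of 188 alternative medians of the gene lists, 49 moved by at least 0.1, namely 0 of 63 with 6-OHDA, 6 of 62 with SP and 43 of 63 in control colonies, and among these 63, 62 and 63 medians the sign changed in 2, 5 and 7. At a mean FPKM of at least 5, no vimentin relative was left to compare with SP. The estimated depth, itself rough, leaves Twist1 in colonies with few fragments.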
